A study of Oryza sativa with 14 samples.

Results

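In the leaf of rice seedlings, 54 expressed genes fell to at most 1/20 of their RNA level in wild-type plants within 0.5 h at 42 °C. They were chosen by the measured values themselves: of the 55986 loci in the deposited table, 12679 had a mean of at least 10 CPM (a gene's count as a share of its library's total, scaled to a total of 1 M, mega, counts) in the 3 untreated wild-type libraries, and 54 of these had a mean in the 3 heat-treated wild-type libraries of at most 1/20 of that level. The clock gene LHY (LOC_Os08g06110), which met the same rule, was left out of the set beforehand. The wild-type values are therefore a description of how the genes were chosen. The 8 libraries of the htg3 mutant lines were not used in the choice, and all tests given here compare groups within those lines. The main fit behind the tests took its low-count filter, scaling and spread from all 14 libraries, WT included. Apart from a nitrate reductase gene described further on, no name or role is given for the members in the sources used here, and they are called by their locus IDs.

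The plants were Oryza sativa of cultivar Zhonghua 11 (ZH11), sampled as leaf at the 4-leaf stage. Wild type (WT) was compared with 2 transgenic htg3 lines, labelled htg3_cr12 and htg3_cr2 and called cr12 and cr2 here, and each genotype was either left at normal conditions or kept at 42 °C for 0.5 h. There were 3 libraries of untreated WT, 3 of heat-treated WT and 2 in each of untreated cr12, heat-treated cr12, untreated cr2 and heat-treated cr2. The labels do not state what change each line carries, and nothing in them says that libraries of a group came from separate plants, so the spread behind the p-values may be technical. A difference between cr12 and cr2 cannot be told apart from other differences between a single pair of lines.

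Plants meet sudden heat by switching on genes for heat shock proteins through heat shock transcription factors, while many other transcripts decline. How far the RNA of a gene can fall within a short treatment depends both on how strongly its transcription is cut and on how fast the RNA already present is degraded. RNA sequencing of whole leaf reads the remaining level only, and it cannot tell fewer cells of a type from less RNA per cell. HTG3 is taken here to be the heat shock factor gene HSFA2d (LOC_Os03g06630), a pairing that comes from general knowledge and is not given by the labels.

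Library totals lay between 92 M and 99.4 M counts, so that depth differed little between libraries. HSFA2d had 75.8 to 93.7 CPM in untreated WT, 35.2 and 148 in untreated cr12, and 92.8 and 99.1 in untreated cr2. After heat it stood at 428 to 616 CPM in WT, 483 and 517 in cr12, and 242 and 254 in cr2, which does not check the labels because the kind of mutation is not given. The summed level of 4 leaf markers was 28910 to 38512 CPM in untreated libraries and 6164 to 14924 CPM in heated ones. By group the heated sums were 8307 to 11713 CPM in WT, 6164 to 8457 CPM in cr12 and 13389 to 14924 CPM in cr2, so heated cr12 and cr2 did not overlap. The summed level of 3 dividing cell markers was 14.1 to 24.7 CPM untreated and 19.8 to 69.2 CPM heated, that of 4 root markers stayed between 29.0 and 47.8 CPM with 1 of the 4 at 0 in each group, and that of 2 shoot meristem markers was at most 0.134 CPM. Whether these shifts have a part in the results was not tested. On overall expression, the leading axis of variation held 74.7% of the variance and parted heated from untreated libraries, and the next, with 7.74%, set the cr2 libraries apart.

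Together the 54 genes made up 7714 to 8758 CPM in the untreated WT libraries and 191 to 298 CPM in the heated ones. In cr12 the sum went from 7248 and 7828 CPM to 233 and 240 CPM. In cr2 it went from 7285 and 8348 CPM to 241 and 257 CPM. The sums of heated and untreated libraries thus lay far apart in each genotype, and the heated sums of both lines fell inside the WT range.

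The 54 genes covered a wide range of starting levels. Their group means in untreated WT ran from 11.2 to 1084 CPM with a median of 68.8 CPM; 25 lay between 10 and 50 CPM, 14 between 50 and 200 CPM, and 15 at 200 CPM or more. After heat the median was 1.68 CPM in WT, 1.60 CPM in cr12 and 2.18 CPM in cr2. Expressed as the part of the untreated level that was left, the median was 2.95% in WT (0.206% to 5.0%), 2.72% in cr12 (0.391% to 18.4%) and 3.47% in cr2 (0% to 19.3%). Among all genes at 10 CPM or more in untreated WT, the median part left was 83.7% in WT, 79.6% in cr12 and 89.9% in cr2. In WT 3 genes kept at most 0.5%, 7 at most 1% and 13 at most 2%.

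**Figure D1:**
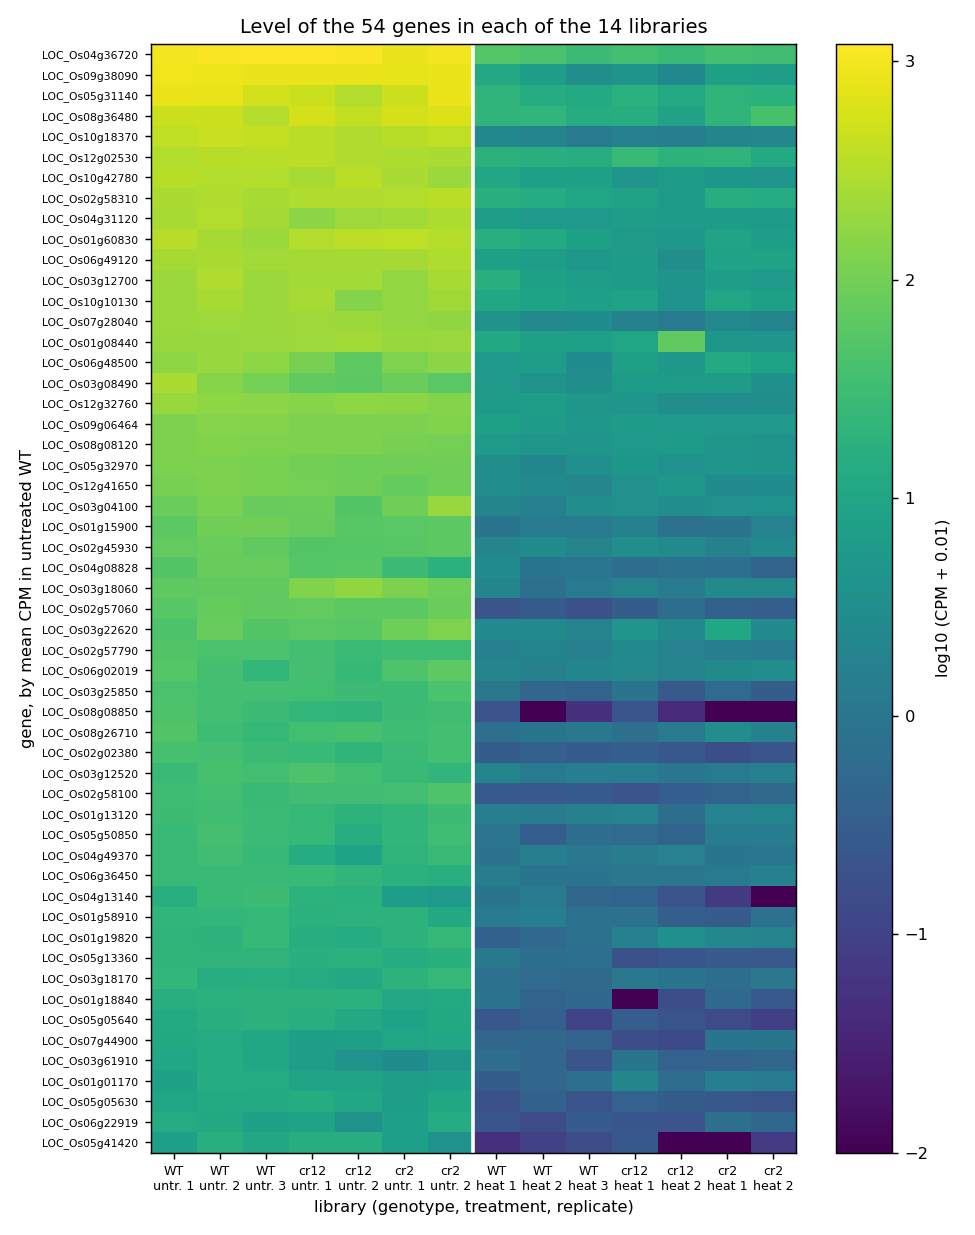
Level of each of the 54 genes (rows, ordered by mean CPM in untreated WT) in each of the 14 libraries (columns), as log10 of CPM + 0.01, with untreated libraries left of the white line and heated ones right of it. Each row darkens from left to right of the white line in all 3 genotypes. The brightest cell among the heated columns is replicate 2 of heat-treated cr12 for LOC_Os01g08440, at 70.5 CPM. Other heated cells come near it, such as LOC_Os04g36720 at 54.1 CPM in replicate 1 of heat-treated WT.

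In the htg3 lines all 54 genes fell with heat. By edgeR's quasi-likelihood test 54 of 54 were called lower in cr12 at an adjusted p of 0.05, with a median log2 change of -5.03, where 23.9% of the 28823 tested genes were called lower and their median was -0.04. In cr2 54 of 54 were called lower with a median of -4.79, where 20.9% of tested genes were called lower and their median was 0. The change averaged over both lines was called lower for 54 of 54, against 28.5% of tested genes, with a median of -4.78, a range of -10.94 to -2.46 and adjusted p-values between 7.8e-11 and 5.3e-05. All 54 genes had passed the filter on low counts. Every heated htg3 library lay below every untreated htg3 library for 54 of 54 genes, which held for 38.3% of the genes at 10 CPM or more in untreated WT. With libraries scaled by their totals alone, the median change of all tested genes moved to -0.21 in cr12 and to -0.14 over both lines, and in cr12 the split over all genes went from 6882 lower and 6402 higher to 8174 lower and 4998 higher, while all 54 genes were still called lower.

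The rule that chose the genes in WT can be applied to each line separately. In cr12 38 of the 54 genes met it (70.4%), among 72 genes meeting it there; these 38 make up 52.8% of the cr12 list, and 0.558% of the 12897 genes at 10 CPM or more in untreated cr12 met the rule. In cr2 36 of the 54 met it (66.7%), among 53 genes in all; they are 67.9% of the cr2 list, and 0.423% of 12544 genes met the rule. Of the 54 members, 14 kept more than 5% of their level in cr12 and 4 started below 10 CPM there, 2 of them doing both. In cr2 15 kept more than 5% and 5 started below 10 CPM, again with 2 doing both. The rule was met in both lines by 30 members and in neither by 10. The members were chosen by this cut in WT, so a smaller share meeting it in other libraries was favoured by the choice. These counts are a description with no test. In WT itself, 47 to 53 of the 54 still met the rule when each WT library was left out. A further 8 genes met the rule in both lines but not in WT, where they kept 5.3% to 20.6% of their level with a median of 5.93%. The highest of these, LOC_Os07g13969, had no count in some untreated libraries and in any heated htg3 library.

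**Figure D2:**
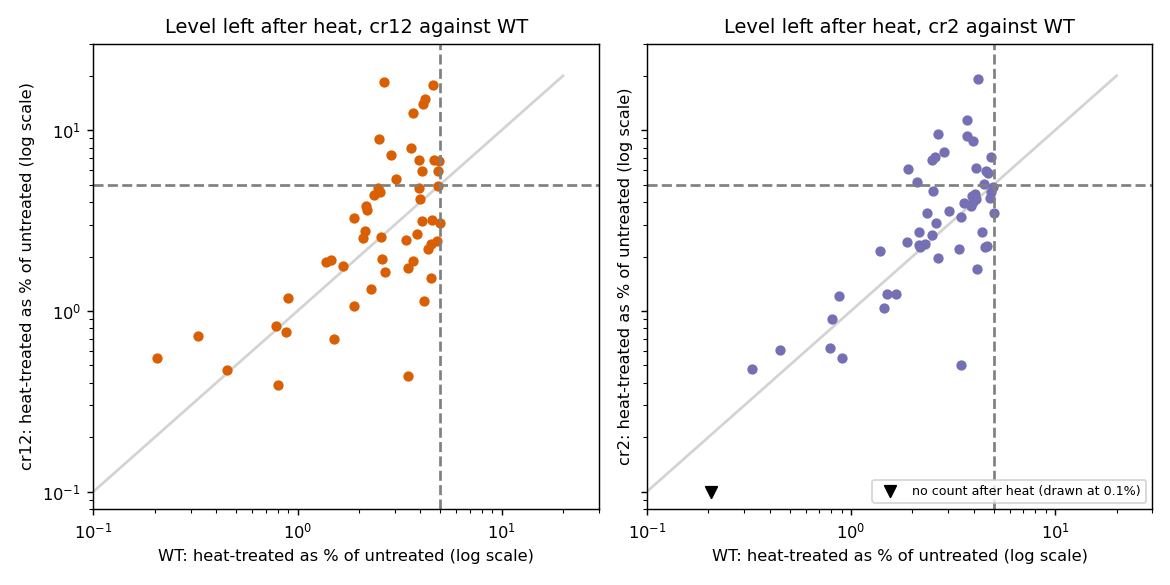
Heat-treated level as a percent of the untreated level for each of the 54 genes, in cr12 (left) and cr2 (right) against WT, on log axes. The dashed lines mark the 5% threshold, the grey line marks equal values, and the triangle is LOC_Os08g08850 with no count in heat-treated cr2; WT values end at the threshold by choice, while 5 genes in cr12 and 2 in cr2 kept over 10%.

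The most abundant of the set was LOC_Os04g36720. It had 971, 1128 and 1151 CPM in untreated WT and 54.1, 41.6 and 29.8 CPM after heat. It had 1168 and 1112 CPM untreated and 34.3 and 26.4 CPM heated in cr12, and 843 and 974 CPM untreated and 36 and 33.3 CPM heated in cr2. Heated and untreated libraries lay far apart in each genotype, and the change over both lines was -4.86 ± 0.19, adjusted p = 1.7e-09 (log2, edgeR).

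LOC_Os09g38090 fell further from a similar level. It had 929, 892 and 846 CPM in untreated WT and 11.4, 6.77 and 3.22 CPM after heat. The lines had 868 and 808 CPM untreated and 4.17 and 2.37 CPM heated in cr12, and 791 and 863 CPM untreated and 8.22 and 6.74 CPM heated in cr2. Less than 1% of the untreated level was left in each line (0.391% in cr12 and 0.905% in cr2), with a log2 change over both lines of -7.29 ± 0.38, adjusted p = 1.4e-08 (edgeR).

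LOC_Os05g31140 and LOC_Os08g36480 came next in abundance. LOC_Os05g31140 had 857, 798 and 531 CPM in untreated WT and 20.5, 13.8 and 12.8 CPM after heat. It had 472 and 310.4 CPM untreated and 17.4 and 12.5 CPM heated in cr12, and 488 and 872 CPM untreated and 20.1 and 17.2 CPM heated in cr2. Untreated libraries of a group differed widely here, yet heated and untreated values did not overlap, and the change over both lines was -4.85 ± 0.29, adjusted p = 4.6e-08 (edgeR).

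LOC_Os10g18370 was the gene with the second largest fitted fall over both lines. It had 393, 440.2 and 407 CPM in untreated WT and 2.37, 1.97 and 1.25 CPM after heat. The lines had 360.0 and 301 CPM untreated and 1.64 and 1.45 CPM heated in cr12, and 339 and 388 CPM untreated and 2.15 and 2.28 CPM heated in cr2. The part left was 0.451% in WT, 0.468% in cr12 and 0.609% in cr2, with heated and untreated libraries far apart in all 3 genotypes, and the change over both lines was -7.44 ± 0.21, adjusted p = 1.4e-10 (edgeR).

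The other genes among the 10 most abundant were LOC_Os12g02530, LOC_Os10g42780, LOC_Os02g58310, LOC_Os04g31120 and LOC_Os01g60830. LOC_Os12g02530 had 319, 339 and 356 CPM in untreated WT and 18.2, 15.1 and 14.3 CPM after heat, and kept 6.81% in cr12 and 5.82% in cr2, above the 5% limit in both lines. LOC_Os10g42780 had 343, 309.9 and 313 CPM in untreated WT and 10.6, 7.24 and 8.02 CPM after heat, and its log2 change over both lines was -5.68 ± 0.17. LOC_Os04g31120 and LOC_Os01g60830 changed by -5.02 ± 0.16 and -5.63 ± 0.24. Between WT at 340.0, 253 and 209 CPM and the lines at 309 and 379 CPM in cr12 and 392 and 334 CPM in cr2, the untreated ranges of LOC_Os01g60830 overlapped.

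At the bottom of the range, some genes were left with only a few counts. LOC_Os08g08850 had 45.1, 34.8 and 31 CPM in untreated WT and 0.186, 0 and 0.0424 CPM after heat. It had 23.3 and 21 CPM untreated and 0.211 and 0.0316 CPM heated in cr12, whereas in cr2 it went from 30 and 33.1 CPM to no count in either heated library. A limit of 3 fragments over the group, taken as 12 counts or 0.0623 CPM, makes the fall in cr2 at least 507-fold from a mean of 31.6 CPM. The fitted log2 changes of -14.56 in cr2 and -10.94 over both lines depend on the prior count and are not bounds. With this gene at its bound of -8.99 the median of the 54 genes in cr2 stayed at -4.79.

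LOC_Os02g57060 kept similarly little from a higher level. It had 58.3, 76.5 and 70.5 CPM in untreated WT and 0.206, 0.296 and 0.17 CPM after heat. The heated lines had 0.312 and 0.674 CPM in cr12 and 0.368 and 0.338 CPM in cr2, from 72.3 and 63.2 CPM and 63.6 and 84.4 CPM. Each heated htg3 library was above each heated WT library, all of them below 1 CPM, and the change over both lines was -7.30 ± 0.26, adjusted p = 8e-10 (edgeR).

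LOC_Os05g41420 started low and ended near no counts. It had 7.25, 15.6 and 10.7 CPM in untreated WT and 0.0412, 0.0845 and 0.138 CPM after heat. It had 14.7 and 14.4 CPM untreated and 0.241 and 0 CPM heated in cr12, and 7.5 and 3.96 CPM untreated and 0 and 0.0717 CPM heated in cr2, with 1 heated library at 0 in each line. Its change of -6.95 ± 0.67, adjusted p = 2.7e-06 (edgeR) has a larger error than the others at this end, and values this low rest on few fragments.

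LOC_Os02g58100, LOC_Os02g02380, LOC_Os07g28040, LOC_Os01g15900 and LOC_Os05g05640 complete the 10 genes with the smallest part left in WT, which was 0.875%, 0.901%, 1.5%, 1.39% and 1.45%. LOC_Os07g28040 had 209, 216 and 204 CPM in untreated WT and 4.11, 2.4 and 2.95 CPM after heat. Its levels were 213 and 206 CPM untreated and 1.67 and 1.24 CPM heated in cr12, and 182 and 174 CPM untreated and 2.49 and 1.92 CPM heated in cr2, with close replicates before heat and a change over both lines of -6.64 ± 0.17, adjusted p = 8.2e-11 (edgeR). The changes over both lines were -6.60 ± 0.21 for LOC_Os02g58100, -6.84 ± 0.22 for LOC_Os02g02380 and -5.54 ± 0.29 for LOC_Os01g15900.

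**Figure D3:**
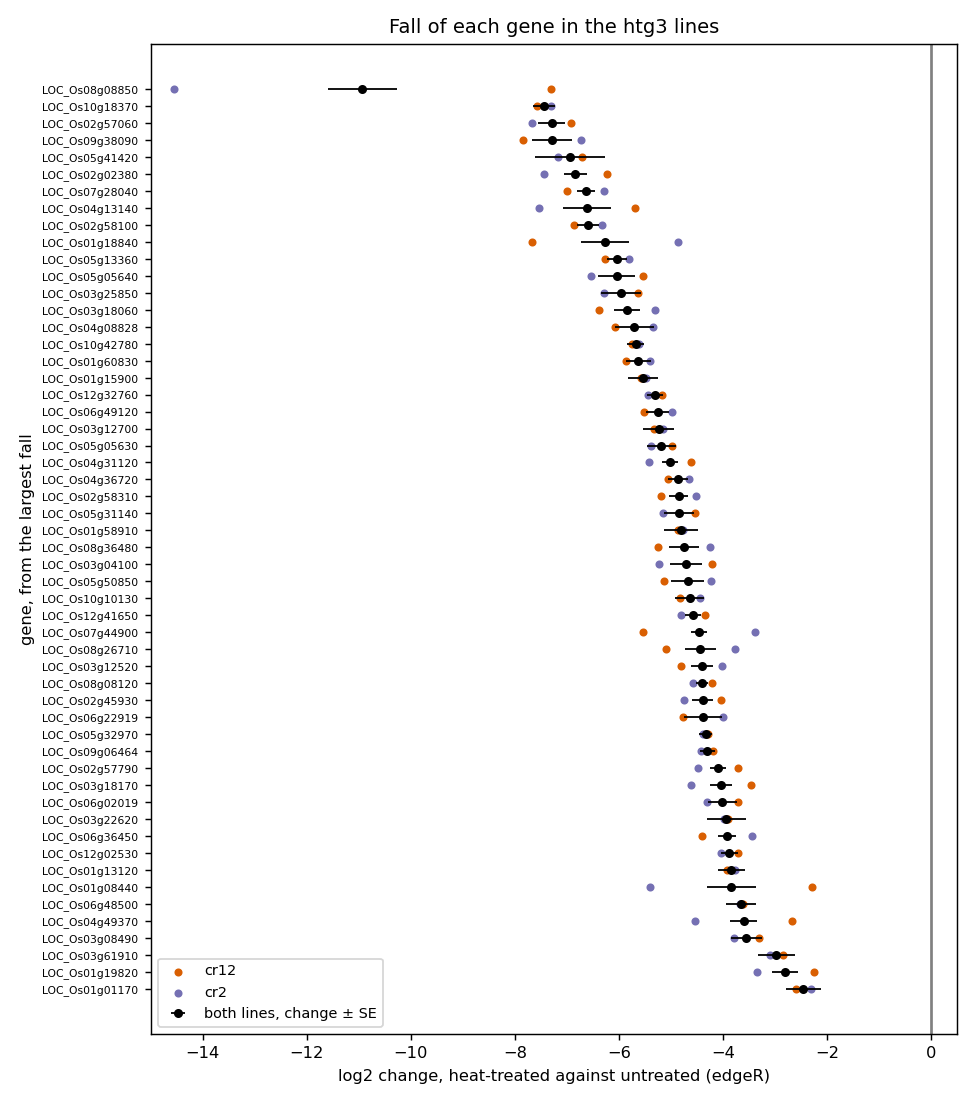
Log2 change with heat of each of the 54 genes in cr12 (orange), in cr2 (purple) and averaged over both lines (black, ± SE), from edgeR, ordered by the average. All points lie left of 0, from -14.56 for LOC_Os08g08850 in cr2, a fitted value for a gene with no count there, to -2.26 for LOC_Os01g19820 in cr12, and the average runs up to -2.46.

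The smallest falls in the lines were those of LOC_Os01g01170, LOC_Os01g19820, LOC_Os03g61910, LOC_Os03g08490 and LOC_Os04g49370. LOC_Os01g01170 had 7.9, 14.1 and 13 CPM in untreated WT and 0.309, 0.465 and 0.7 CPM after heat. It had 9.18 and 9.14 CPM untreated and 2.1 and 0.611 CPM heated in cr12. In cr2 it had 7.06 and 7.37 CPM untreated and 1.58 and 1.21 CPM heated. The part left was 14.8% in cr12 and 19.3% in cr2, against 4.21% in WT. The rule kept the WT value low, and the gene is named here for its small fall in the lines. A larger part left than in WT was thus favoured by the choice, and it is a description with no test. In cr12 the heated library at 0.611 CPM lay inside the heated WT range. The change of LOC_Os01g01170 over both lines was -2.46 ± 0.34, adjusted p = 5.3e-05 (edgeR), still with no overlap between heated and untreated libraries.

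LOC_Os01g19820 kept 2.66% of its level in WT and more in the lines. It had 20.3, 18.8 and 24.7 CPM in untreated WT and 0.371, 0.528 and 0.796 CPM after heat. It had 14.5 and 13.7 CPM untreated and 1.72 and 3.46 CPM heated in cr12, and 19.3 and 24.4 CPM untreated and 2.27 and 1.88 CPM heated in cr2. Each heated htg3 library was above each heated WT library, as for LOC_Os02g57060 and LOC_Os05g32970 only; this held for 8.04% of the genes at 10 CPM or more in untreated WT, and since WT chose the genes it is a description with no test. The change over both lines was -2.81 ± 0.25, adjusted p = 1.3e-06 (edgeR).

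LOC_Os03g61910 and LOC_Os03g08490 stood lower in the untreated lines than in untreated WT. LOC_Os03g61910 had 11.3, 14.2 and 10.5 CPM in untreated WT, 6.58 and 4.12 CPM in cr12 and 2.99 and 4.77 CPM in cr2. LOC_Os03g08490 had 269, 144 and 105 CPM in untreated WT, the widest relative spread of the 54 genes there, against 67.8 and 62.6 CPM in cr12 and 82.9 and 60 CPM in cr2. The lines did not overlap WT for either gene, which held in this direction for 8.31% of the genes at 10 CPM or more in untreated WT. Since untreated WT levels chose the genes, this is a description with no test. After heat LOC_Os03g61910 had 0.936 and 0.39 CPM in cr12 and 0.41 and 0.471 CPM in cr2, and LOC_Os03g08490 had 5.87 and 5.84 CPM and 6.21 and 3.58 CPM. Their changes over both lines were -2.98 ± 0.36 and -3.55 ± 0.29. For LOC_Os04g49370 the part left was 13.9% in cr12 and 4.14% in cr2, from 14 and 8.84 CPM and 20.2 and 26.4 CPM, and the change over both lines was -3.61 ± 0.25.

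Before heat, 12 of the 54 genes had all 4 htg3 libraries below all 3 WT libraries, against 8.31% of the genes at 10 CPM or more in untreated WT, and 1 gene, LOC_Os03g18060, had them all above, against 5.26%. LOC_Os03g18060, picked for mention after its values were seen, had 67, 70.3 and 70.3 CPM in untreated WT, 129 and 172 CPM in cr12 and 122 and 90 CPM in cr2. After heat 7 genes had all htg3 libraries below all WT libraries, against 9.89%, and 3 had them all above. WT levels chose the genes, so nothing is read from these counts.

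The remaining 24 genes, described by their ranges, started between 11.2 and 253 CPM in WT. Their changes over both lines ran from -6.27 to -3.65, and none kept more than 8.0% in cr12 or 8.74% in cr2. Across 53 genes (without LOC_Os08g08850) the log2 changes of cr12 and cr2 had a Pearson r of 0.707 and a Spearman rho of 0.712. Between WT and cr12 these were 0.607 and 0.512, and between WT and cr2 0.696 and 0.538. These are descriptions across genes, which share libraries and depth and are not independent replicates, and the WT changes were used to choose the genes.

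Variation between replicates is given as a description. The median coefficient of variation was 13.7% in untreated WT, 9.65% in untreated cr12 and 14.9% in untreated cr2, against 7.16%, 6.45% and 10.9% among all genes at 10 CPM or more in untreated WT. It was over 25% for 9 genes in WT, 9 in cr12 and 11 in cr2.

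The 2 lines were then compared with each other. Untreated, none of the 54 genes was called between cr12 and cr2 by edgeR, against 3.8% of tested genes in either direction; 13 had an unadjusted p under 0.05, and DESeq2 called 5 lower and 1 higher in cr12, against 8.84% of its tested genes. The lowest adjusted p by edgeR belonged to LOC_Os04g49370 at -1.15 ± 0.31, adjusted p = 0.063. Over all genes the split was 645 lower and 449 higher in cr12, and with scaling by library totals 351 lower and 503 higher. Both cr12 libraries lay below both cr2 libraries for 16 of the 54 genes, against 16.4% of the genes at 10 CPM or more in untreated WT, and above them for 15, against 45.7%.

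After heat edgeR called 3 of the 54 genes lower in cr12 than in cr2, against 3.45% of tested genes, and 2 higher, against 2.18%. Counts of 3 and 2 genes are close to those shares, and they are not read as a trait of the set. DESeq2 called 8 lower and 5 higher, against 8.12% of its tested genes in either direction. Both heated cr12 libraries lay below both heated cr2 libraries for 19 of the 54 genes, against 29.4% of the genes at 10 CPM or more in untreated WT, and above them for 12, against 25.2%. LOC_Os07g44900 had the lowest adjusted p. It had 0.151 and 0.126 CPM in heated cr12 and 0.935 and 0.922 CPM in heated cr2, with WT between them at 0.474, 0.486 and 0.382 CPM. The 3 groups did not overlap, and the log2 difference, cr12 minus cr2, was -2.73 ± 0.24, adjusted p = 0.00049 (edgeR). The heated cr12 libraries held only 15 and 12 counts of this gene, so the size of the difference rests on few fragments. Before heat LOC_Os07g44900 had 6.86 and 7.78 CPM in cr12, 9.6 and 10.5 CPM in cr2 and 11.9, 13.4 and 11.1 CPM in WT. The log2 response to heat in cr12 minus that in cr2 was -2.15 ± 0.30, adjusted p = 0.065 (edgeR), which misses the threshold.

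LOC_Os02g58310 and LOC_Os08g36480 were also lower in heated cr12. LOC_Os02g58310 had 8.56 and 5.92 CPM in heated cr12, 14.3 and 14.1 CPM in heated cr2 and 16.9, 13.7 and 9.71 CPM in heated WT, and the difference between the lines was -0.97 ± 0.23, adjusted p = 0.033 (edgeR). Before heat its levels were 299 and 295 CPM in cr12, 311 and 362 CPM in cr2 and 278, 297 and 262 CPM in WT. For LOC_Os08g36480 the difference was -1.44 ± 0.35, adjusted p = 0.036 (edgeR). The calls of both genes were lost without replicate 2 of heat-treated cr12 (adjusted p = 0.33 for each), and without replicate 2 of heat-treated cr2 (adjusted p = 0.17 and 0.32, with the difference of LOC_Os08g36480 at -0.88); that of LOC_Os02g58310 was also lost without replicate 1 of heat-treated cr2 (adjusted p = 0.13), and that of LOC_Os08g36480 in a fit of the 8 htg3 libraries alone (adjusted p = 0.079).

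LOC_Os01g08440 and LOC_Os04g13140 were higher in heated cr12. LOC_Os01g08440 had 9.58 and 70.5 CPM in the heated cr12 libraries, 4.87 and 4.43 CPM in heated cr2 and 12.4, 8.16 and 7.59 CPM in heated WT, from 218 and 234, 198 and 208 and 201, 198 and 208 CPM before heat. Replicate 2 of heat-treated cr12 stood apart, and without it the difference of 3.14 ± 0.65, adjusted p = 0.017 (edgeR) became 1.05 with an adjusted p of 0.081. The call was also lost without replicate 1 or replicate 2 of heat-treated cr2 (adjusted p = 0.093 and 0.13), and in a fit of the 8 htg3 libraries alone (adjusted p = 0.084). LOC_Os04g13140 had 0.423 and 0.211 CPM in heated cr12 and 0.063 and 0 CPM in heated cr2, where it was also lower before heat, at 7.1 and 5.5 CPM against 19.1 and 17.7 CPM in cr12 and 15.5, 27.6 and 30.7 CPM in WT. Its difference after heat was 3.29 ± 0.86, adjusted p = 0.047 (edgeR), was called in 3 of 13 alternative settings, and rests on few fragments. Without replicate 1 of heat-treated cr2 it became 7.99 (adjusted p = 0.053), a fitted value against a library with no count.

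**Figure D4:**
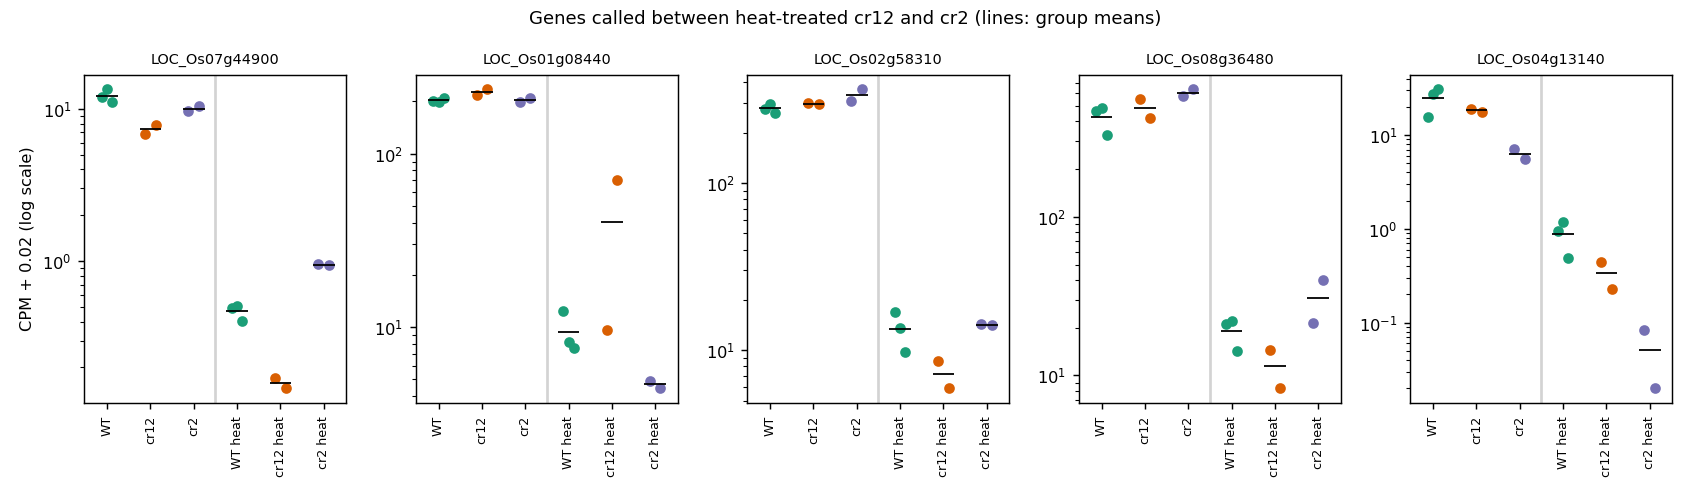
Level of the 5 genes called between heated cr12 and heated cr2, in CPM + 0.02 on log axes, with a point for each library and a bar for each group mean, untreated groups left of the grey line and heated groups right of it. For LOC_Os07g44900 the 3 heated groups do not overlap, and for LOC_Os01g08440 1 heated cr12 library at 70.5 CPM stands above the other at 9.58 CPM.

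The test of the difference itself, the response to heat in cr12 minus that in cr2, called none of the 54 genes by edgeR, where 1 of the 28823 tested genes was called (0.00347%). Of the 54, 14 had an unadjusted p under 0.05, and DESeq2 called 2 lower and 1 higher, against 1.52% of its tested genes. The genes DESeq2 called were LOC_Os01g18840, LOC_Os04g49370 and LOC_Os07g44900. LOC_Os07g44900 was also called by edgeR with library totals and with no filter on low counts. The main edgeR fit thus detected no response that differs between the lines for these genes. With 2 libraries a group this does not show that they respond alike.

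Of the 54 genes, 1 was on the 25 lists of pathway and marker genes drawn up for this comparison, besides LHY. It is LOC_Os08g36480, known as NIA1, a nitrate reductase, the enzyme that reduces nitrate to nitrite as the first step of nitrate assimilation in leaves. The deposited table gives no gene names, so the pairing of locus IDs with names comes from general knowledge, and the RefSeq table of rice genes (assembly ASM3414082v1), which lists NIA1 on chromosome 8 as well, holds none of the locus IDs. NIA1 had 466, 485 and 329.7 CPM in untreated WT and 21.1, 22.1 and 14.2 CPM after heat. It had 555 and 418 CPM untreated and 14.4 and 8.29 CPM heated in cr12, and 575 and 635 CPM untreated and 21.4 and 39.9 CPM heated in cr2. No heated library came near the untreated ones, and the change over both lines was -4.76 ± 0.28, adjusted p = 4.4e-08 (edgeR). The nearby locus LOC_Os08g36500, known as a further nitrate reductase copy, had group means of 258 CPM untreated and 20.2 CPM heated in cr12, and 289 and 31.0 CPM in cr2; how the authors' counting split reads between the copies is not known, so both values are uncertain.

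The other listed genes of nitrogen uptake and assimilation had smaller fitted changes. Over both lines 8 of the 10 listed genes were called lower and none higher, NIA1 included, with a median of -1.21, against 28.5% of tested genes called lower and a median of -0.03. Such a fall was not particular to this list. Of the photoreceptor and light signalling genes 8 of 8 tested were called lower, and of the flowering and photoperiod genes 7 of 9. Other lists went the other way, such as cytokinin response with 5 of 7 called higher and none lower. Of the 10 listed nitrogen genes, 7 were called lower in cr12 and 6 in cr2, against 23.9% and 20.9% of tested genes. The ammonium transporter gene AMT1;1 (LOC_Os04g43070) changed by -2.94 ± 0.20 in log2 units over both lines. Its level was 427 ± 34.1 CPM untreated and 62.6 ± 11.0 CPM heated in cr12, and 331 ± 66.8 and 32.8 ± 10.3 CPM in cr2 (SD, n = 2 each). The glutamine synthetase genes GS1;1 and GS2, whose enzymes join ammonium to glutamate, changed by -0.95 ± 0.11 and -1.01 ± 0.15. Fd-GOGAT, the ferredoxin-dependent glutamate synthase, changed by -1.16 ± 0.11, and the nitrite reductase gene NIR by -0.86 ± 0.33, adjusted p = 0.044 (edgeR). The nitrate transporter gene NRT1.1B changed by -1.26 ± 0.19. A listed second nitrate reductase gene, LOC_Os02g53130, changed by -2.75 ± 0.66 from a low level. The nitrate transporter gene NRT2.1, at most 0.266 CPM in any group mean, and the nitrate response repressor gene NIGT1 gave no call (adjusted p = 0.056 and 0.53 by edgeR). NIR, NRT1.1B and LOC_Os02g53130 were not found in the RefSeq table by the symbols listed for them.

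**Figure D5:**
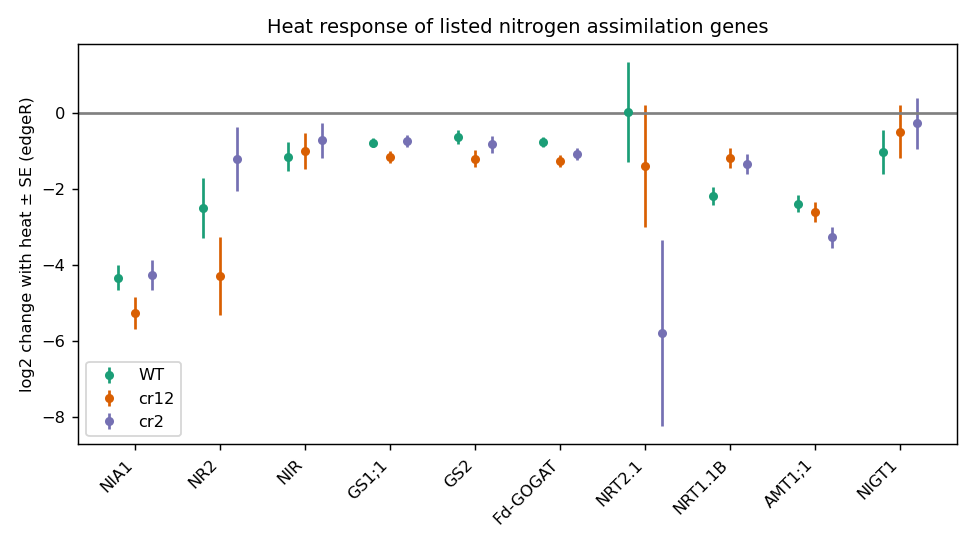
Log2 change with heat (± SE, edgeR) of the 10 listed genes of nitrogen uptake and assimilation in WT (green), cr12 (orange) and cr2 (purple). NIA1 has the largest falls called, GS1;1, GS2 and Fd-GOGAT lie between about -1.25 and -0.63, and the value of NRT2.1 in cr2 is a fitted value for a gene with no count in the heated libraries.

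By chromosome, as the locus IDs give it, the set held 8, 6, 9, 5, 7, 5, 2, 4, 2, 3, 0 and 3 genes on chromosomes 1 to 12 in turn. A single pair of members had neighbouring IDs, LOC_Os05g05630 and LOC_Os05g05640. LOC_Os05g05630 had 9.59, 12.5 and 12.6 CPM in untreated WT and 0.175, 0.37 and 0.202 CPM after heat. Its levels were 13.8 and 11.3 CPM untreated and 0.392 and 0.306 CPM heated in cr12, and 7.03 and 11.3 CPM untreated and 0.231 and 0.195 CPM heated in cr2. LOC_Os05g05640 had 12.6, 15.6 and 18.1 CPM in untreated WT and 0.227, 0.348 and 0.0955 CPM after heat. Its levels were 15.9 and 11.5 CPM untreated and 0.322 and 0.2 CPM heated in cr12, and 8.78 and 12.4 CPM untreated and 0.137 and 0.082 CPM heated in cr2. Both fell, with changes over both lines of -5.19 ± 0.28 and -6.04 ± 0.36. The locus before them, LOC_Os05g05620, had means of 9.75 CPM untreated and 0.287 CPM heated in cr12, and 7.31 and 0.307 CPM in cr2; it stood at 8.58 CPM in untreated WT, below the level the rule asked for.

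At the threshold of 5% left in WT, the members just inside were LOC_Os01g58910 at 5.0%, LOC_Os06g02019 at 4.95% and LOC_Os01g13120 at 4.87%. Just outside were LOC_Os01g10210 and LOC_Os02g46660, both at 5.03%, and LOC_Os12g40920 at 5.08%. In cr12 the 3 inside kept 3.06%, 6.76% and 5.92%, and the 3 outside 8.88%, 4.33% and 5.51%. In cr2 these values were 3.47%, 4.88% and 7.1% inside and 10.1%, 6.75% and 4.53% outside. In both lines the values inside and outside the limit overlapped.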

How the data were processed

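Leaf RNA of 14 libraries in 6 groups was sequenced. The submitters' processing notes list fastp (0.20.1), StringTie (1.3.3b), HISAT2 (2.1.0) and DESeq2, with no roles or settings, and the build of the genome (not given in the sources used here) is unknown. The authors deposited estimated counts per gene, whole numbers as given; values gather at multiples of 4 (9196 values of 4 against 3918 of 3 and 5346 of 5), so 1 fragment was taken as worth about 4 counts. Levels are CPM on library totals. Tests used edgeR 4.0.16 (R 4.3.3, limma 3.58.1): TMM scaling, filterByExpr over the 6 groups, 1 quasi-likelihood fit of all 14 libraries, 6 contrasts within cr12 and cr2, and Benjamini-Hochberg adjustment over 28823 genes. DESeq2 1.42.0 and other settings were alternatives. Errors of log2 changes are approximate SE, taken as the size of the change divided by the square root of its F statistic. The code was tested on simulated data. No replicate pair was a duplicate (Pearson r of log counts 0.983 to 0.986). Named genes are the 10 most abundant in untreated WT, the 10 with the smallest part left, the 5 largest and 5 smallest falls in the lines, those called between lines, those on a list, those next to the threshold and neighbouring loci; any other named gene was picked after its values were seen. The members, lists and pairings of IDs with names were chosen with earlier results of these data known; of 174 listed genes, 119 symbols were found in the name table, 117 of them on the chromosome of the ID.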

Additional observations from a re-analysis of the deposited data

How the results depend on the processing

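The fall of the 54 genes in cr12, in cr2 and over both lines was called for all 54 under every alternative run, and the 30 named genes kept direction and call in 390 of 390 comparisons. Between the lines, 45 comparisons of the 5 named genes kept the call and 20 lost it, and none reversed. Untreated, the count lower in cr12 went from 0 to 5 with DESeq2, 1 with no filter on low counts and 2 with counts divided by 4, and to between 0 and 5 when each library was left out, 5 being without replicate 1 of untreated cr2; the count higher went from 0 to 1 with DESeq2 and with counts divided by 4. After heat, the count lower went from 3 to 8 with DESeq2, 2 with the 8 htg3 libraries alone and between 1 and 5 when each library was left out (1 without replicate 2 of heat-treated cr2, 5 without replicate 1 of heat-treated cr12), and the count higher from 2 to 5 with DESeq2, 0 with the 8 htg3 libraries alone, 1 with counts divided by 4 and between 0 and 2 when each library was left out. For the difference in response, the count lower went from 0 to 2 with DESeq2, 1 with library totals and 1 with no filter, and the count higher from 0 to 1 with DESeq2 and between 0 and 1 when each library was left out. The number of genes meeting the rule went from 54 to 168 at a ratio of 1/10, 20 at 1/40, 45 with CPM on TMM-scaled library sizes (all 45 among the 54), 71 at a level of 5 CPM, 45 at 20 CPM, 30 when every heated library had to be at most 1/20 of every untreated one, and between 51 and 66 when each WT library was left out, with 47 to 53 of the 54 among them. Where a library was left out, the lone library of its group was assumed to vary like the other groups. The cause of these shifts was not tested. No paired analysis was possible because replicate numbers follow sample order only and mark no shared plant, batch or day. Levels under 1 CPM rest on few fragments, so the depth limits how far a fall can be measured.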

Other observations

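The loci next to the 54 genes by ID were looked at after the data were seen. Of 106 neighbouring loci 78 were tested, and 42 were called lower and 14 higher over both lines (edgeR), with a median log2 change of -0.83. That is 53.8% lower, where 30.6% of 14954 tested neighbours of all genes at 10 CPM or more in untreated WT were called lower. This is a count with no test, and whether neighbouring loci share reads was not tested. Of the 78, 9 (11.5%) had heated means of at most 1/10 of untreated in both lines, where 1.57% of the 14954 did. For 7 of the 9 every untreated group mean was at most 1.19 CPM, so that their falls rest on few fragments. The other two are LOC_Os05g05620 and LOC_Os03g12530, the locus after the member LOC_Os03g12520, which had means of 165 CPM untreated and 9.22 CPM heated in cr12, and 122 and 9.96 CPM in cr2. On chromosome 5 LOC_Os05g05620 lies before the pair of members there, and LOC_Os05g05650, 1 of the 7 at a low level, lies after it. LOC_Os01g08460, whose ID lies near the member LOC_Os01g08440, had means of 68.2 CPM untreated and 4.4 CPM heated in cr12, and 69.3 and 5.76 CPM in cr2. It is not among the 106 neighbouring loci. The loci directly before and after LOC_Os01g08440 were not called over both lines (edgeR). LOC_Os01g08430 had means of 74.3 CPM untreated and 66.9 CPM heated in cr12, and 64.6 and 69.3 CPM in cr2. For LOC_Os01g08450 these were 20.1 and 17.1 CPM in cr12, and 20.5 and 18.9 CPM in cr2.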
